A study of Homo sapiens with 4 samples.

Results

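The keratin genes that separate luminal from basal mammary epithelium were examined in maps of accessible chromatin from the breast cancer line SKBR3, untreated or treated with the cytokine TWEAK. The 10 genes were taken by their names in GENCODE release 44, 10 of 19962 protein-coding genes: 4 luminal keratins (KRT7, KRT8, KRT18 and KRT19) and 6 keratins taken as the basal set (KRT5, KRT14, KRT15, KRT17, KRT6A and KRT81). Overlapping peaks of the 4 libraries were merged into 307691 sites. Of these, 334 lay no farther than 50 kb from a start site of at least 1 of the 10 genes, and each was assigned once, to the gene with the nearest start site. That gave 168 luminal and 166 basal sites, of which 115 lay within 50 kb of genes of both classes.

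ATAC-seq marks accessible DNA by the insertion of sequencing adaptors with the Tn5 transposase. SKBR3, an established line, carries an amplified ERBB2 (HER2) gene. The groups were 2 untreated (UT) libraries and 2 libraries from cells given 10 ng/ml TWEAK for 48 h, with fresh TWEAK after 24 h and after 8 h of starvation in Optimem. The UT libraries carry the same text on culture as the TWEAK libraries, and all 4 come from 1 line.

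Keratins are the intermediate filament proteins of epithelial cells, and each filament is built from pairs of a type I and a type II keratin. Simple epithelium, including the luminal cells of the breast, is known for the pair of KRT8 (type II) and KRT18 (type I) together with KRT7 and KRT19, whereas basal and stratified epithelium is known for KRT5 paired with KRT14 or KRT15. KRT6A and KRT17 are known for their induction in activated and wounded keratinocytes, and KRT81 is a keratin of the hair shaft. It was kept in the basal set as the gene list has it, and holds 28 of the 166 basal sites and 16 of the 70 found in all 4 libraries. Type II genes and KRT18 lie in a cluster on chromosome 12, and the other type I genes on chromosome 17. TWEAK acts through its receptor Fn14, which is known to activate the transcription factors NF-kB and AP-1.

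The 6 sequences below carry the sites to which the results return. The first 5 ranked higher in both TWEAK libraries than in both UT libraries, or had a peak only with TWEAK, and held a match to NF-kB or AP-1. The last is the strongest site of the whole keratin set and hardly moved. Each is the hg38 plus strand around the best peak (100 bp to either side of its centre), and each lies outside annotated exons. Capitals mark matches to AP-1 (TGACTCA) or to the NF-kB consensus on either strand. These 6 were chosen with their values known.
KRT18, 15.6 kb downstream of its start, chr12:52964636-52964836: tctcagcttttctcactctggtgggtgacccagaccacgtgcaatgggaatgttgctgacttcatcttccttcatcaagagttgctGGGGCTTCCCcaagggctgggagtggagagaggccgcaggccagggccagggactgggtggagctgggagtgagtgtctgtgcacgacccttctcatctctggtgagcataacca
KRT8, 16.9 kb downstream of its start, chr12:52888052-52888252: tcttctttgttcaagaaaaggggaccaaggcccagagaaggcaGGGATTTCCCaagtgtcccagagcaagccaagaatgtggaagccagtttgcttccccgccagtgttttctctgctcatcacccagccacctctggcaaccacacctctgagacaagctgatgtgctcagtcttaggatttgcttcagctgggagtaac
KRT5, 1654 bp downstream of its start, chr12:52518619-52518819: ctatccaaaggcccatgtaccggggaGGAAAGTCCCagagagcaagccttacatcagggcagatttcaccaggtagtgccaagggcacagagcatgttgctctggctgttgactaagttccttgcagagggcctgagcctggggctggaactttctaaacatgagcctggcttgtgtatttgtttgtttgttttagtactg
KRT81, 10.0 kb upstream of its start, chr12:52301430-52301630: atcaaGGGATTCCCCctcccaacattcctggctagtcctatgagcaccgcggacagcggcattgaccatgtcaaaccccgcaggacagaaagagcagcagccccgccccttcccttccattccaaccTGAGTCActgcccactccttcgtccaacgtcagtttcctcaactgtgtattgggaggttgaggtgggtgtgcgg
KRT15, 24.2 kb downstream of its start, chr17:41494614-41494814: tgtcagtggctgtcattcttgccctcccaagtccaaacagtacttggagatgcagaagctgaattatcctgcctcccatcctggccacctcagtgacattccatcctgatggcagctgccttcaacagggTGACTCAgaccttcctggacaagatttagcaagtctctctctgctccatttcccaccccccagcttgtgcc
KRT19, 7941 bp upstream of its start, chr17:41536139-41536339: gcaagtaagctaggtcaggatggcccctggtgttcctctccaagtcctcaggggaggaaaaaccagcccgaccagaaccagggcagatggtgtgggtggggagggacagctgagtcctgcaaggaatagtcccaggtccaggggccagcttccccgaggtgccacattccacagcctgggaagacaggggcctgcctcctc

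The deposited lists held 208407 and 228734 peaks in UT replicates 1 and 2 and 218423 and 195388 in TWEAK replicates 1 and 2, all of 1 width. Depth differed: the background pileup recovered from the values was 3.59 and 2.24 reads in the UT libraries and 2.63 and 1.85 in the TWEAK libraries. The value of a peak is a -log10 p that grows with depth, so each peak was placed by its rank percentile within its own list, in which 100 is the strongest. A site without a peak had none at the authors' threshold, which is not the same as closed chromatin. Of 10 epithelial and luminal marker genes, 9 had a peak within 1 kb of the start site in all 4 libraries. The exception was CDH1, with none in any library, which encodes E-cadherin, a protein that SKBR3 is known to lack. Of 8 basal or myoepithelial markers 5 had one, with mean percentiles of 33.4 at TP63, 38.5 at VIM, 85.7 at OXTR, 88.7 at CAV1 and 95.1 at EGFR. The lowest of the luminal markers with a peak was ESR1, at 61.5. Of 9 markers of other cell types 2 had one (CD14 and COL1A1), and 5 had none in any library.

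All 4 luminal keratin promoters were accessible in every library and ranked near the top of each list. A high rank is usual for promoters: over genes with a promoter peak in all 4 libraries the median percentile was 90.9, and among all genes the luminal promoters stood at the 99.1 (KRT19), 90.5 (KRT8), 86.4 (KRT7) and 85.5 (KRT18) percentile. A promoter site here is the highest-ranked site overlapping the 1 kb on either side of the canonical start site. At KRT19, a type I keratin abundant in luminal cells, it stood at percentile 99.8 and 99.8 in the UT libraries and at 99.8 and 99.8 in the TWEAK libraries. At KRT8 the values were 98 and 97.7 without and 98.2 and 98.2 with TWEAK. At KRT7, found in glandular epithelium, they were 96.6 and 97 without and 97.6 and 97 with TWEAK. At KRT18, the type I partner of KRT8, they were 98 and 97.4 without and 96.3 and 95.8 with TWEAK. The KRT18 promoter was thus lower in both TWEAK libraries than in both UT libraries by a mean difference of -1.61 percentile points. The KRT7 and KRT8 promoters were higher in both, by 0.538 and 0.356 points, although for KRT7 the nearest values of the 2 groups round to the same 97. The KRT19 promoter did not separate the treatments.

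The basal promoters were divided. The KRT15 promoter, of a type I keratin of basal cells, ranked as high as the luminal ones, at 96.6 and 97 without and 96.5 and 96.4 with TWEAK, a difference of -0.308 points with both TWEAK libraries below both UT libraries. A site at an alternative KRT15 start, 3407 bp upstream of the canonical start, ranked higher still, at 99.5 and 99.6 without and 99.6 and 99.1 with TWEAK. The KRT17 promoter was intermediate, at 67.2 and 67.7 without and 61.2 and 61 with TWEAK, and both TWEAK libraries lay below both UT libraries. The KRT5 promoter was weak and uneven, at 42.2 and 40.8 in the UT libraries, then 58.2 and 27.3 in TWEAK replicates 1 and 2. The TWEAK values of KRT5 lay on either side of the UT values.

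No library had a peak within 1 kb of the canonical start site of KRT14, the type I partner of KRT5, or of KRT6A or KRT81. Among all protein-coding genes 70.9% had such a peak in all 4 libraries, against 4 of 4 luminal and 3 of 6 basal keratins. Keratin genes have near-identical copies, which limits unique mapping: of the 31-base words within 1 kb of the start site, 29.1% occurred more than once in the genome at KRT14, 27.9% at KRT6A and 40.9% at KRT81. The share was of like size at 3 promoters with a peak, 37.4% at KRT17, 27.2% at KRT18 and 23.6% at KRT8, and small at KRT7 (1.22%), KRT5 (1.88%), KRT15 (3.86%) and KRT19 (13.2%). Its part in the missing peaks was not tested.

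**Figure D1:**
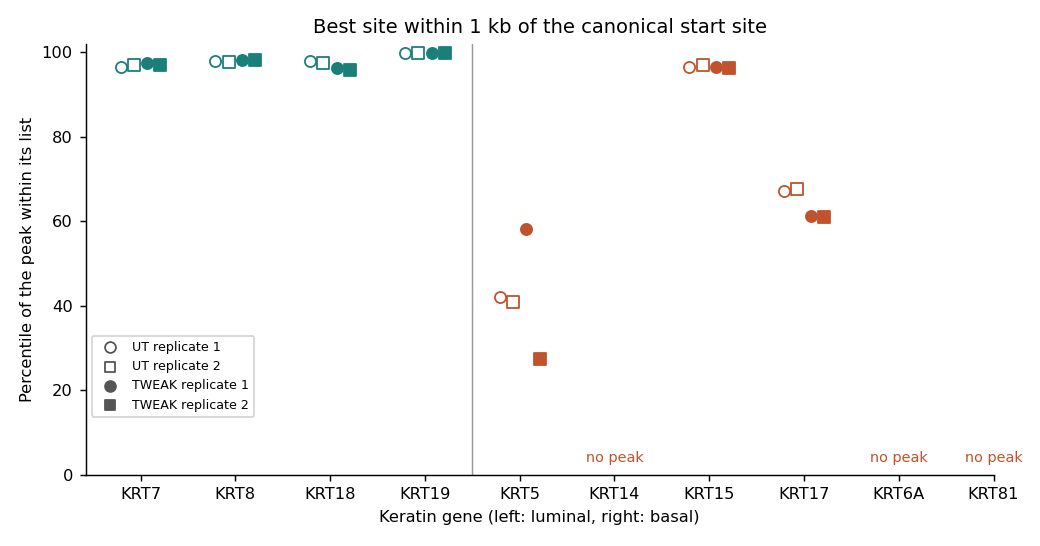
Percentile within its own peak list (y axis, 0 to 100) of the best site within 1 kb of the canonical start site of each keratin gene (x axis), with 1 symbol per library: open for UT and filled for TWEAK, circles for replicate 1 and squares for replicate 2. The 4 luminal genes and KRT15 lie above 95, KRT17 lies between 61 and 67.7, KRT5 spreads from 27.3 to 58.2, and KRT14, KRT6A and KRT81 had no peak.

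In order of promoter rank KRT19 came first in every library. KRT8, KRT7, KRT18 and KRT15 followed: the ranges of KRT7, KRT18 and KRT15 over the 4 libraries overlapped one another, and that of KRT8 overlapped that of KRT18 but lay above those of KRT7 and KRT15. KRT17 and then KRT5 stood clear of the group above, with no overlap between them, although the lowest KRT17 value (61) and the highest KRT5 value (58.2) were close. These are ranks of peaks at single sites and not amounts of RNA. Neither these ranks nor those of the classes were adjusted for the number of DNA copies of a region.

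Accessible sites were numerous around most of the genes. The median protein-coding gene had 19 sites within 50 kb. KRT7 had 80, KRT15 79, KRT19 77, KRT8 70, KRT17 70, KRT14 68, KRT81 53 and KRT18 49, whereas KRT5 had 17 and KRT6A 16. Neighbouring keratins share many of these sites, so the numbers are not independent. Counting each site once at its nearest gene, KRT7 held 67, KRT17 54, KRT8 42, KRT15 40, KRT19 30, KRT18 29, KRT81 28, KRT14 23, KRT5 13 and KRT6A 8. The annotated start sites of KRT8 reach into KRT18, since its most upstream annotated start is at 52949954, within the KRT18 gene (chromosome 12, 52948871 to 52952906), so the boundary between that pair is set by the annotation.

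**Figure D2:**
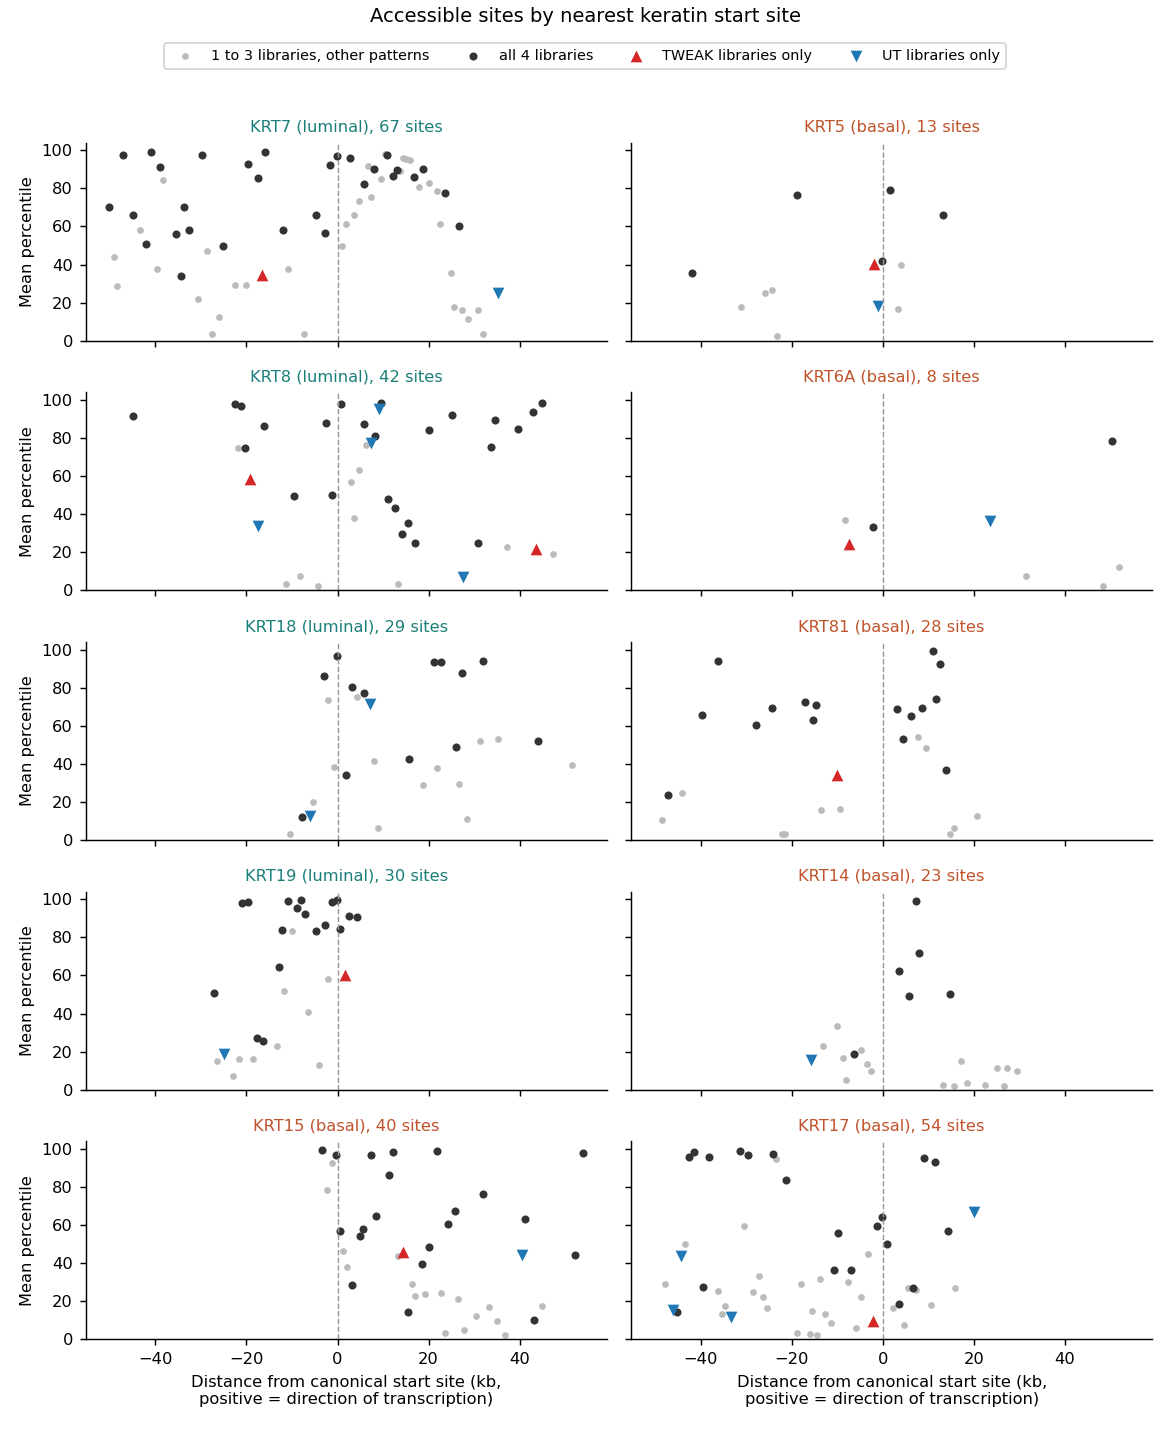
Each panel shows the sites assigned to 1 keratin gene by distance from its canonical start site (x axis, kb, positive in the direction of transcription) and mean percentile over the libraries with a peak (y axis); black points had a peak in all 4 libraries, red triangles in the TWEAK libraries only, blue triangles in the UT libraries only, and grey points are the rest. KRT19 shows a dense upstream block near the top of the scale, and KRT5 and KRT6A have few sites.

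Several of the highest sites lay away from the promoters. The strongest of all 334 was the intergenic site 7941 bp upstream of KRT19 (chromosome 17, 41535989 to 41536510), the last sequence above. It stood at percentile 99.9 in each of the 4 libraries, with -log10 p values of 1748 and 1396 without and 1469 and 1191 with TWEAK. Of the 18 KRT19 sites found in all 4 libraries, 7 had a mean percentile above 95.

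KRT14 had no promoter peak, but an intergenic site 7185 bp downstream of its start (chromosome 17, 41579454 to 41579967) stood at 99.2 and 99.3 without and 99.2 and 99.2 with TWEAK. A site 31277 bp upstream of KRT17 (chromosome 17, 41655590 to 41656115) stood at 99.4 and 99.2 without and 98.7 and 98.8 with TWEAK. KRT81 also lacked a promoter peak, and its strongest site (chromosome 12, 52280322 to 52280858), in an intron of the neighbouring hair keratin KRT86, stood at 99.6 and 99.4 without and 99.1 and 98.9 with TWEAK. Sites of the highest rank were therefore present within 50 kb of basal keratins with and without a promoter peak. The KRT81 site is also within 50 kb of the luminal KRT7, whereas the KRT14 and KRT17 sites are in reach of basal genes only. The highest other site of KRT8 (chromosome 12, 52895260 to 52895791) stood at 99.2 and 98.8 without and 98 and 97.6 with TWEAK, and that of KRT7, at the promoter of the keratin KRT80, at 98.9 and 99.2 without and 99.1 and 98.9 with TWEAK. KRT18 and KRT6A had lower ones: 94.7 and 94.7 without and 94.2 and 93.6 with TWEAK for KRT18, and 72.2 and 76.3 without and 83.9 and 81 with TWEAK for KRT6A.

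As classes, luminal peaks had a higher median rank than basal peaks in every library. The median percentile of peaks at luminal sites was 80.6 and 72.9 in the UT libraries and 79.5 and 74.9 in the TWEAK libraries, and at basal sites 51.7 and 49.9 and then 46.8 and 48.4. Over all sites with a peak the median was between 50.3 and 51.2, so it is the luminal set that stood apart from the middle of the lists. The difference was 28.9, 23, 32.7 and 26.5 percentile points, a mean of 27.8 ± 4.1 (SD, n = 4 libraries), with an exact two-sided sign-flip p of 0.13, the smallest that 4 libraries allow. It was present on both chromosomes: on chromosome 12 luminal medians ran from 71.4 to 79 and basal medians from 50.9 to 58.9, and on chromosome 17, where KRT19 is the only luminal gene, they ran from 84.4 to 86.9 and from 42.8 to 49.9. Single genes did not all follow their class. The KRT18 medians, 58.4 and 54.8 without and 53.8 and 69.2 with TWEAK, lay below those of KRT81, 64.7 and 66 without and 61.2 and 61 with TWEAK, in 3 of 4 libraries. Without the sites within reach of both classes, luminal medians ran from 67.3 to 74.6 and basal medians from 40.6 to 43.8.

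**Figure D3:**
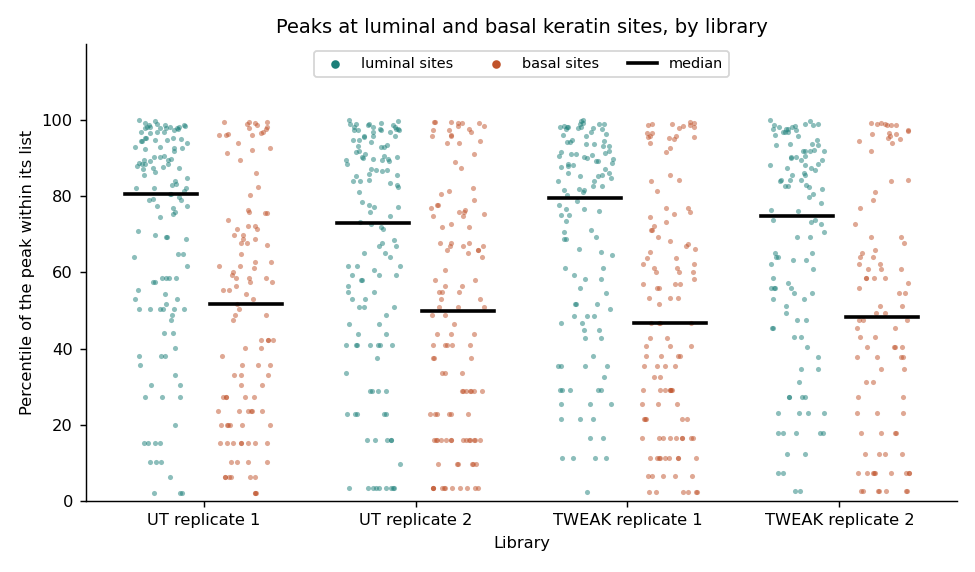
Percentile within its list (y axis) of every peak at a luminal or basal keratin site in each library (x axis), with 1 point per peak, scattered sideways for visibility, and a black line at the median. The luminal median lies between 72.9 and 80.6 and the basal median between 46.8 and 51.7.

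The share of sites found in all 4 libraries was 51.2% of the luminal sites (86 of 168, 95% Wilson interval 43.7 to 58.6%) and 42.2% of the basal sites (70 of 166, 34.9 to 49.8%), against 42.8% of all merged sites. The difference was 9.02 percentage points with a 95% Newcombe interval of -1.66 to 19.4, which includes 0, and it reversed to -2.45 when only the strongest 150000 peaks of each list were used. Neighbouring sites are not independent, and such intervals cover counting only. Of the sites in all 4 libraries, 20 luminal (23.3%) and 15 basal (21.4%) had a mean percentile above 95, against 7.56% of all sites found in all 4 libraries. The basal ones were 14 of 47 sites on chromosome 17 (29.8%) but only 1 of 23 on chromosome 12 (4.35%), below the share of all sites. The luminal ones were 7 of 18 on chromosome 17 (38.9%) and 13 of 68 on chromosome 12 (19.1%).

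Luminal sites held fewer peaks in both TWEAK libraries than in both UT libraries, and basal sites gave no common direction, in a design too small for any such test to pass 0.05. These counts were not scaled to list length, which was 208407 and 228734 peaks without and 218423 and 195388 with TWEAK. Shares of each list were not compared. Among the strongest 150000 peaks of each list, the luminal difference was -8.5 in place of -12 peaks (exact permutation p = 0.33). The basal difference was then -3 (exact permutation p = 0.667). With peaks of a -log10 p of at least 5 only, the luminal difference was -4. The luminal counts of the 2 groups then overlapped (exact permutation p = 0.667). Luminal sites held 128 and 130 peaks in the UT libraries and 120 and 114 in the TWEAK libraries, 129 ± 1.41 against 117 ± 4.24 (SD, n = 2 each, exact permutation p = 0.33, the smallest that 2 against 2 allows). Basal sites held 115 and 122 without and 121 and 96 with TWEAK, 118 ± 4.95 against 108 ± 17.7 (SD, n = 2 each, exact permutation p = 0.667). TWEAK replicate 2, the shallowest library with the shortest list, decides the basal direction, since without it the basal difference was 2 instead of -10. The p-values measure only the spread between these libraries.

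Few keratin sites were present with 1 treatment only. A site was called gained when it was found in the 2 TWEAK lists and in no UT list, and lost in the reverse case. Near the keratins 9 of 334 sites (2.69%) were gained, against 3.6% of all merged sites, and 16 (4.79%) were lost, against 3.79%. The gained sites were 4 luminal and 5 basal, and the lost sites 8 and 8. Leaving out each library in turn gave 16 to 40 gained and 30 to 48 lost sites, because 1 library on a side is then enough. Shares of all merged sites under that easier rule are not given here, so these counts have no background. Without TWEAK replicate 2 the balance turned, with 40 gained and 30 lost. Beyond the promoter sites described above, which had a peak in all 4 libraries, 1 lost site reached within 1 kb of a canonical start: at KRT5, 979 bp upstream (chromosome 12, 52521103 to 52521644), it stood at 27.2 and 9.6 in the UT libraries and lay 98 bp from the gained site of the same gene.

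Most gained sites were weak or bordered on a peak of the other treatment. The strongest, 1650 bp downstream of the KRT19 start (chromosome 17, 41526399 to 41526918), stood at 64.6 and 56 in the TWEAK libraries but lay 79 bp from a UT peak. The next, in an intron of KRT8 (chromosome 12, 52924139 to 52924653), stood at 59.2 and 57.3 and lay 363 bp from a UT peak. In both of them most 31-base words around the peak centre were repeated in the genome, 77.2% at the KRT19 site and 79.5% at the KRT8 site.

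The gained site of KRT81 (chromosome 12, 52301280 to 52301792) was the farthest from a UT peak, at 3015 bp, and none of its words was repeated. It lay 73 bp from an annotated start of KRT86, stood at 21.4 and 47.4 in the TWEAK libraries, and held both an AP-1 and an NF-kB match in the sequence shown above. The other gained sites belonged to KRT15 (42.8 and 49.4, at a KRT13 promoter), KRT5 (40.6 and 40.5), KRT7 (21.4 and 47.4), KRT6A (11.2 and 37.7), KRT8 (25.5 and 17.9) and KRT17 (16.4 and 2.52). They lay between 35 and 298 bp from the nearest UT peak.

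Lost sites included stronger peaks. A site 9008 bp downstream of the KRT8 start (chromosome 12, 52895806 to 52896331) stood at 95 and 95.7 in the UT libraries, but a TWEAK peak began 36 bp away. A site 7409 bp downstream of the same start stood at 77.5 and 77.7, with a TWEAK peak at 414 bp, and a site 7055 bp downstream of the KRT18 start at 69.4 and 73.2, with a TWEAK peak at 441 bp and 63.7% of its 31-base words repeated. The strongest lost site far from any TWEAK peak, at 5317 bp, was 20017 bp downstream of the KRT17 start (chromosome 17, 41604308 to 41604809) and stood at 58.4 and 75.8. The remaining 12 had mean percentiles between 6.77 and 44.5. Of the 16 lost sites, the KRT5 site held an AP-1 match and 1 of the KRT17 sites (chromosome 17, 41670239 to 41670995) an NF-kB match. With peaks of a fixed width, presence and absence at neighbouring positions can describe 1 broad open region.

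For sites present in all 4 libraries the ranks were compared. The mean percentile over the 86 luminal sites was 76.5 and 77 without and 76 and 74.6 with TWEAK, a difference of -1.41 points (exact permutation p = 0.33, n = 2 each), and over the 70 basal sites 65.3 and 66.5 without and 65 and 60.5 with TWEAK, a difference of -3.19 (exact permutation p = 0.33, n = 2 each). Over all sites of this kind the mean difference was -2.53 points, which lies between the luminal and the basal value. The part of this general fall in the 2 values was not tested. With ranks taken among the sites of all 4 libraries only, an alternative added after seeing the data, the luminal difference was 0.24 and the basal difference -1.21. On that scale the mean difference over all sites is 0. Without TWEAK replicate 2 the luminal difference was -0.321 and the basal difference -1.4, and without TWEAK replicate 1 the basal difference was -5.7.

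Both TWEAK libraries lay above both UT libraries at 24 of the 156 keratin sites (15.4%, against 15.8% of all sites in all 4 libraries), 14 luminal and 10 basal. Both lay below at 64 (41%, against 35.4%), 34 luminal (39.5%) and 30 basal (42.9%). Without the sites within reach of both classes the order of the classes turned. Then 26 of 60 luminal sites (43.3%) and 15 of 42 basal sites (35.7%) were lower, the basal share being near that of all sites. The balance depends on the scale: with ranks among shared sites only, 31 were higher (19.9%, against 23.3% of all sites) and 50 lower (32.1%, against 28%). Leaving out each library in turn gave 31 to 42 higher (19.9% to 26.9%, against 20.5% to 31.6% of all sites) and 75 to 95 lower (48.1% to 60.9%, against 41.5% to 57.6%), the most higher (42) and the fewest lower (75) without TWEAK replicate 2. Strong sites hardly moved: at a mean percentile of 90 or more, differences ran from -3.61 to 5.75 points, and below 90 from -30.9 to 29.5. Rank has little room to move near the top of a list.

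**Figure D4:**
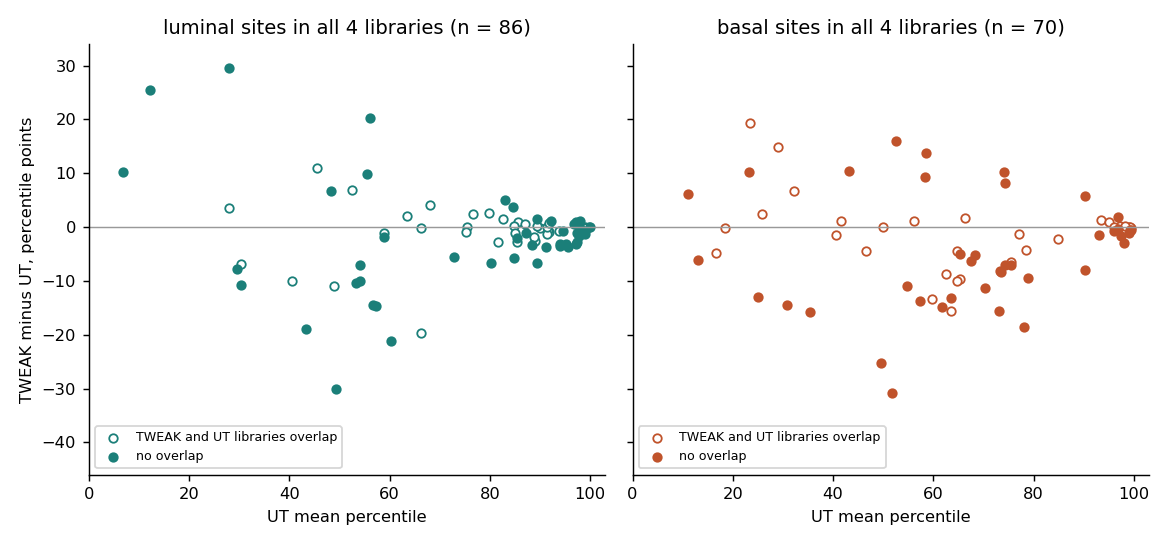
TWEAK minus UT difference in percentile (y axis, points) against the UT mean percentile (x axis) for the 86 luminal and the 70 basal sites with a peak in all 4 libraries; filled points are sites at which the 2 TWEAK libraries both lay above or both below the 2 UT libraries. The differences narrow toward the right and most filled points lie below 0, on within-list ranks.

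Among sites at which the treatments did not overlap, the largest rises were at weak or intermediate sites. The site 15649 bp downstream of the KRT18 start (chromosome 12, 52964476 to 52965058) went from 27.2 and 28.8 without to 51.8 and 63.2 with TWEAK, a difference of 29.5 points. The site 16910 bp downstream of the KRT8 start (chromosome 12, 52887892 to 52888441) went from 15.1 and 9.6 to 32.5 and 43, a difference of 25.4. Each held an NF-kB match, shown above, and none of their 31-base words was repeated.

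The third luminal site, 4660 bp upstream of the KRT7 start (chromosome 12, 52228311 to 52228856), went from 50.3 and 61.8 to 78.7 and 73.8 and held none of the motifs searched. Of the basal sites without overlap the largest rise, 16 points, was at the KRT15 site shown above (chromosome 17, 41494417 to 41494997), from 47.4 and 57.9 to 73.2 and 64.1, with an AP-1 match. It was followed by a site 39748 bp upstream of KRT81, from 59.3 and 57.9 to 75.4 and 69.2, and by a site 20191 bp downstream of the KRT15 start, from 48.9 and 37.4 to 55.8 and 51.2, both without a match. A basal site 2269 bp upstream of KRT6A differed by 19.3 points, but its values of 6.15 and 40.8 without and 38.1 and 47.4 with TWEAK overlapped.

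At KRT5 the promoter gave no common direction, but the strongest site of the gene did. This site (chromosome 12, 52518469 to 52519012), 105 bp from an alternative KRT5 start, stood at 75.6 and 72.6 in the UT libraries and at 84.3 and 84.4 in the TWEAK libraries, a difference of 10.3 points. Its NF-kB match is in the sequence above, and the window also held TFAP2 and p53-family matches.

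The largest falls without overlap were equally at weak or intermediate sites. A site 1759 bp downstream of the KRT18 start (chromosome 12, 52950228 to 52951527) went from 44 and 54.8 without to 11.2 and 27.3 with TWEAK, a difference of -30.1 points. A site 10831 bp upstream of KRT17 (chromosome 17, 41635119 to 41635693) went from 50.3 and 53 to 29.2 and 12.3, a difference of -30.9. The others were 9461 bp upstream of KRT8 (-21.2), 34434 bp upstream of KRT7 (-19), and 13823 and 3178 bp downstream of the KRT81 start (-25.3 and -18.6). Around the peak centre 51.5% of the 31-base words were repeated at this KRT8 site and 59.6% at the second of these KRT81 sites, 3.51% at the KRT18 site and none at the other 3. The KRT7 site held 2 NF-kB matches, and the other 5 held neither an NF-kB nor an AP-1 match.

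Sites of KRT81 leaned downward. Of the 16 KRT81 sites in all 4 libraries, 11 lay lower in both TWEAK libraries and 1 higher, with a median difference of -8.29 points against -1.75 over all sites. Of the 11, 7 lay from 3178 to 13823 bp downstream of the start, all annotated as intronic, in KRT81 or the adjacent KRT86. All 7 also lie within 50 kb of a start site of the luminal KRT7. Leaving out each library in turn, 11 to 14 of the 16 were lower, between 68.8% and 87.5%, against 41.5% to 57.6% of all sites. With ranks among shared sites only, 8 of 16 were lower (50%, against 28% of all sites) and the median was -8.48. KRT14 had only 6 sites in all 4 libraries, of which 4 lay lower in both TWEAK libraries and 0 higher, with a median difference of -8.96. Leaving out each library in turn, 4 to 6 of them were lower, and with ranks among shared sites only 2 were lower (33.3%, near the 28% of all sites) and the median was -5.18. These neighbouring sites are not independent, and no difference between genes was tested.

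Motif matches were compared as shares of sites, without a test. An NF-kB match was present at 5 of the 24 keratin sites that rose in both TWEAK libraries (20.8%), at 5 of the 64 that fell (7.81%) and at 6.21% of all merged sites. Over all sites in all 4 libraries the shares were 12.7% of those that rose and 3.94% of those that fell. AP-1 matches were present at 6 of the 24 (25%) and 6 of the 64 (9.38%), against 9.02% of all merged sites, 22.1% of all that rose and 6% of all that fell. Among gained sites the NF-kB share was 2 of 9 near the keratins and 20.1% of all gained sites, and among lost sites 1 of 16 and 4.29%. A match describes the letters only, and these counts are small.

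The other keratin genes of both clusters were counted in the same way. Of 45, 17 (37.8%) had a peak within 1 kb of the canonical start site in all 4 libraries, 11 in some libraries and 17 in none. Their 380 sites outside the reach of the 10 genes included 12 gained and 14 lost (3.16% and 3.68%). Of the 157 found in all 4 libraries 47 rose (29.9%) and 54 fell (34.4%), so that the rising share was above both that of the luminal and basal keratins and that of all sites, a difference that was not tested. The promoters of KRT80, KRT13, KRT23 and KRT4 ranked above 97 in every library, as high as those of the luminal keratins.

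Among them, 2 promoters stood out and are named after their values were seen. The promoter of KRT2, a keratin of the upper epidermis, went from 19.8 and 22.8 without to 88.9 and 89.2 with TWEAK. That of KRT16, induced like KRT6A and KRT17 in wounded epidermis, went from 89.5 and 91.1 to 95.6 and 96.5. At the KRT16 site 40.9% of the 31-base words around the peak centre were repeated. The KRT16 site is also within 50 kb of KRT17 and is the keratin site above percentile 90 with the largest difference, 5.75 points.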

How the data were processed

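According to the methods and the submitters' processing notes, the authors trimmed reads with Trimmomatic, mapped them to hg38 with Bowtie2, removed mitochondrial reads and duplicates, and called peaks with MACS2 in each library; versions and settings were not given in the sources used here. The deposited value of each peak was read as a -log10 p-value, uncorrected, since the 40 lowest distinct values of each list matched a Poisson tail within 5.19e-05. It depends on depth, so only ranks within a list were compared, with tied values sharing a rank. The study's differential test needs reads and was not run.

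Peaks on chromosomes 1 to 22 and X were merged at an overlap of at least 1 bp. Genes and canonical start sites came from GENCODE release 44. Motifs were searched on both strands within 100 bp of the best peak's centre: AP-1 TGACTCA, TFAP2 GCCNNNGGC, GATA factors (AGATAA), GRHL AACCGGTT, forkhead TGTTTAC, TEAD GGAATG, and NF-kB and p53-family consensus by name. Groups came from sample titles. Libraries were compared by exact permutation or sign flips, two-sided. Code was tested on simulated lists. Named sites were each gene's promoter site and highest other site, every gained and lost site, and the 3 luminal and 3 basal sites with the largest difference each way among those without overlap between treatments. The members, lists and tests were chosen with earlier results of these data known. Alternatives were other distances, thresholds, list lengths and overlaps, sites near 1 class only, and each library left out. Python 3.11.15, pandas 2.3.3, numpy 2.4.6 and scipy 1.17.1 were used.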

Additional observations from a re-analysis of the deposited data

How the results depend on the processing

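Of 86 values recomputed under alternatives, 73 kept their direction and their side of the threshold or stayed within their error, 10 counts moved and 3 values reversed. No test could pass the threshold of 0.05 in this design, so keeping a side of it was fixed in advance. A value counted as kept could also shrink, as the share difference below did from 9.02 to 0.474 points. The causes were not tested. Within 20 kb of a start site 8 sites were lost in place of 16, and within 100 kb 14 were gained in place of 9. The luminal minus basal share of sites in all 4 libraries was -2.45 points among the strongest 150000 peaks of each list and 0.474 among peaks of a -log10 p of at least 5. With direction kept, the luminal peak difference shrank to -4 and the basal one to -3, and the luminal rank difference to -0.415 at 100 kb and -0.321 without TWEAK replicate 2, and the basal one ran from -5.7 to -1.4 with 1 library left out. Leaving out 1 library at a time gave 16 to 40 gained and 30 to 48 lost sites, since a single remaining library is an easier condition to meet. Without TWEAK replicate 2 more sites were gained (40) than lost (30), the reverse of the order with all 4 libraries. No share of all sites is given for these counts. The basal peak difference ran between -22 and 2, the last without TWEAK replicate 2. With ranks among sites of all 4 libraries only, chosen after seeing the data, the luminal rank difference was 0.24. The luminal minus basal difference in median percentile kept its direction under every alternative run, between 18.7 and 29.5 points.

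Replicate numbers are shared between treatments, but the labels do not say that they pair libraries. Deviations of same-numbered libraries correlated at 0.21 over the 156 keratin sites and -0.00607 over all 131751 sites in all 4 libraries. With the replicate block the differences stayed at -12 and -10 peaks and -1.41 and -3.19 points, with exact p of 0.5, 1, 0.5 and 0.5, where 0.5 is the smallest that 2 pairs allow. With 2 libraries a group and peak lists in place of reads, small changes at single keratin sites were not detectable.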

Other observations

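Sequence content differed between the keratin sites and the rest of the lists. The median GC content of the peaks was 53.7% at keratin sites and 47.3% over all merged sites, with 53.3% for luminal and 54.3% for basal sites. A GATA match (AGATAA) was present at 6 of the 86 luminal sites found in all 4 libraries (6.98%) and at 0 of the 70 basal sites, against 6.9% of all such sites. TFAP2 matches were at 20.9% of the luminal and 20% of the basal sites found in all 4 libraries, against 15%. No keratin site held a GRHL match (AACCGGTT), which was present at 0.137% of all merged sites. These shares were not tested, and neighbouring sites are not independent.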
